A study of Homo sapiens with 2 samples.

Results

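Genes that carried many peaks of methylated ERG (mERG) in VCaP cells were described, together with the peaks themselves. The genes were selected on the number of rows that name them in the deposited peak list, with a minimum of 20. Of 5011 gene names in the list, 97 (1.94%) had 20 or more peaks, and these 97 names held 2920 of the 18070 peaks (16.2%). They were set beside the 2211 names with 1 peak, the 2703 names with 2 to 19 peaks, and the whole list. VCaP is an established line of prostate cancer cells in which TMPRSS2 is fused to ERG. Chromatin from these cells was precipitated with an antibody against the mono-methylated form of ERG, and the data comprise 1 mERG ChIP library and 1 control library, with no replicate of either. The labels of the control name an input in its title and IgG as its antibody, so which of them it was is not known. Peaks were called by the authors on this pair of libraries, so every value below describes 1 list, the number of peaks, their scores, widths and spacing come from the contrast and the rule that selected the genes, and no test was made.

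ERG is a transcription factor of the ETS family, whose members bind DNA at sites with the core GGAA. In prostate cancers with the fusion, the androgen-driven promoter of TMPRSS2 brings ERG under control of the androgen receptor. EZH2, the catalytic subunit of the Polycomb repressive complex that methylates histone H3, can also methylate ERG, and the antibody was raised against ERG that carries this mark. Transcription factors often bind in introns far from the start of a gene, where enhancers lie.

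To show what such peaks look like, the central 201 bp of the strongest peak are printed for 4 of the names with most peaks, followed by a strong intronic peak of a name with 1 peak, NECAP1. All are read from the + strand of hg19 (GRCh37), 5′ to 3′, and capitals mark each GGAA or its reverse complement TTCC. The positions are chr9:14166553-14166753 for NFIB, chr17:44251068-44251268 for KANSL1, chr4:41630798-41630998 for LIMCH1, chr3:71139095-71139295 for FOXP1 and chr12:8241213-8241413 for NECAP1. Each of the 5 peaks lies in an intron by the deposited annotation.
NFIB: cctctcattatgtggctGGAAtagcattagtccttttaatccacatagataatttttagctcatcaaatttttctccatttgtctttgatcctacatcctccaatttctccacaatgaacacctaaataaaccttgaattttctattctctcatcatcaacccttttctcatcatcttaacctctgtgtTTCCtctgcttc
KANSL1: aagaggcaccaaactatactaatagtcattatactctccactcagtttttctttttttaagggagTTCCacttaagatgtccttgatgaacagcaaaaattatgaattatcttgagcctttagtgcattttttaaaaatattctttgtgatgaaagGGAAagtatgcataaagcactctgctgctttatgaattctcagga
LIMCH1: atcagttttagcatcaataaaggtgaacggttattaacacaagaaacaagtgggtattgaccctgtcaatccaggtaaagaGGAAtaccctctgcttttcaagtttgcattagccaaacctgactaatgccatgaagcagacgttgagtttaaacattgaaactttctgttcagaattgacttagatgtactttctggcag
FOXP1: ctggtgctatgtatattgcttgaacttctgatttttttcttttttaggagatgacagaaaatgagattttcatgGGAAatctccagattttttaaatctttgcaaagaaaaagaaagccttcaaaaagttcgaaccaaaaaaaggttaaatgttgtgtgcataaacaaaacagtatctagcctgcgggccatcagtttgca
NECAP1: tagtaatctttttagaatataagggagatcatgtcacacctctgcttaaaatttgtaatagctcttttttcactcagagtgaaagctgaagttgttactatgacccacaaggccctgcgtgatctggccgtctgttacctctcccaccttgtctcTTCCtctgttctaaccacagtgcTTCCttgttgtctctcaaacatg

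The KANSL1 peak had a score of 468.6 and a width of 3067 bp, against 112.26 and 1040 bp at FOXP1, 93.61 and 625 bp at LIMCH1, and 93.4 and 789 bp at NFIB. The score is the authors' value for a peak and was read as 10 times the negative log10 of the MACS p-value, so a higher score means a smaller p-value in this pair of libraries. The NECAP1 peak, with a score of 97.85 and a width of 1097 bp, was thus as strong as the best peaks of LIMCH1 and NFIB. It was not typical of single peaks, whose median score was 37.4 and median width 304 bp. The deposited annotation put a transposon-derived repeat at the centre of the NFIB (LINE), KANSL1 (DNA), FOXP1 (DNA) and NECAP1 (LINE) peaks, and none at LIMCH1. The printed windows of NFIB, KANSL1 and NECAP1 hold 2 copies of the core each, and those of LIMCH1 and FOXP1 hold 1.

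The core was common in windows of this length and was about as frequent around peaks of genes with many peaks as around single peaks. GGAA, searched on both strands within 100 bp of the peak centre, was present in 2453 of 2920 windows of genes with many peaks (84.0%, Wilson 95% interval 82.6 to 85.3%). It was present in 84.3% of windows of single-peak genes and in 83.8% of all windows. Windows 2 kb to either side of the peaks of genes with many peaks held it in 79.8% of cases, and those of all peaks in 79.6%. The longer word AGGAAGT, which contains GGAA, was present in 126 windows of genes with many peaks (4.32%, 3.64 to 5.11%), against 4.13% of their flanking windows, 3.71% of windows and 4.35% of flanking windows of single-peak genes, and 4.30% of all peak windows. CCGGAAGT, which also contains GGAA, was found in 4 of the 2920 windows and 1 of their 5840 flanking windows, in 0 of 2209 windows of single-peak genes, and in 6 of 18037 windows and 19 of 36074 flanking windows of all peaks. The median GC content was 38.3% at the centres of peaks of genes with many peaks and 40.0% in their flanks, against 38.8% and 41.0% for single-peak genes. Among genes with many peaks, the share of windows with GGAA ran from 53.6% at CTNNA1 to 100% at CORO6 and TTC37. No repeat was annotated at 61.1% of the centres (59.3 to 62.8%), against 56.5% for single-peak genes (54.4 to 58.5%) and 57.6% for all peaks. In the same order, LTR repeats lay at 3.36%, 5.47% and 4.06%, and LINE repeats at 16.0%, 19.4% and 18.0%. SINE repeats lay at 13.8%, 11.9% and 14.2%.

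**Figure D1:**
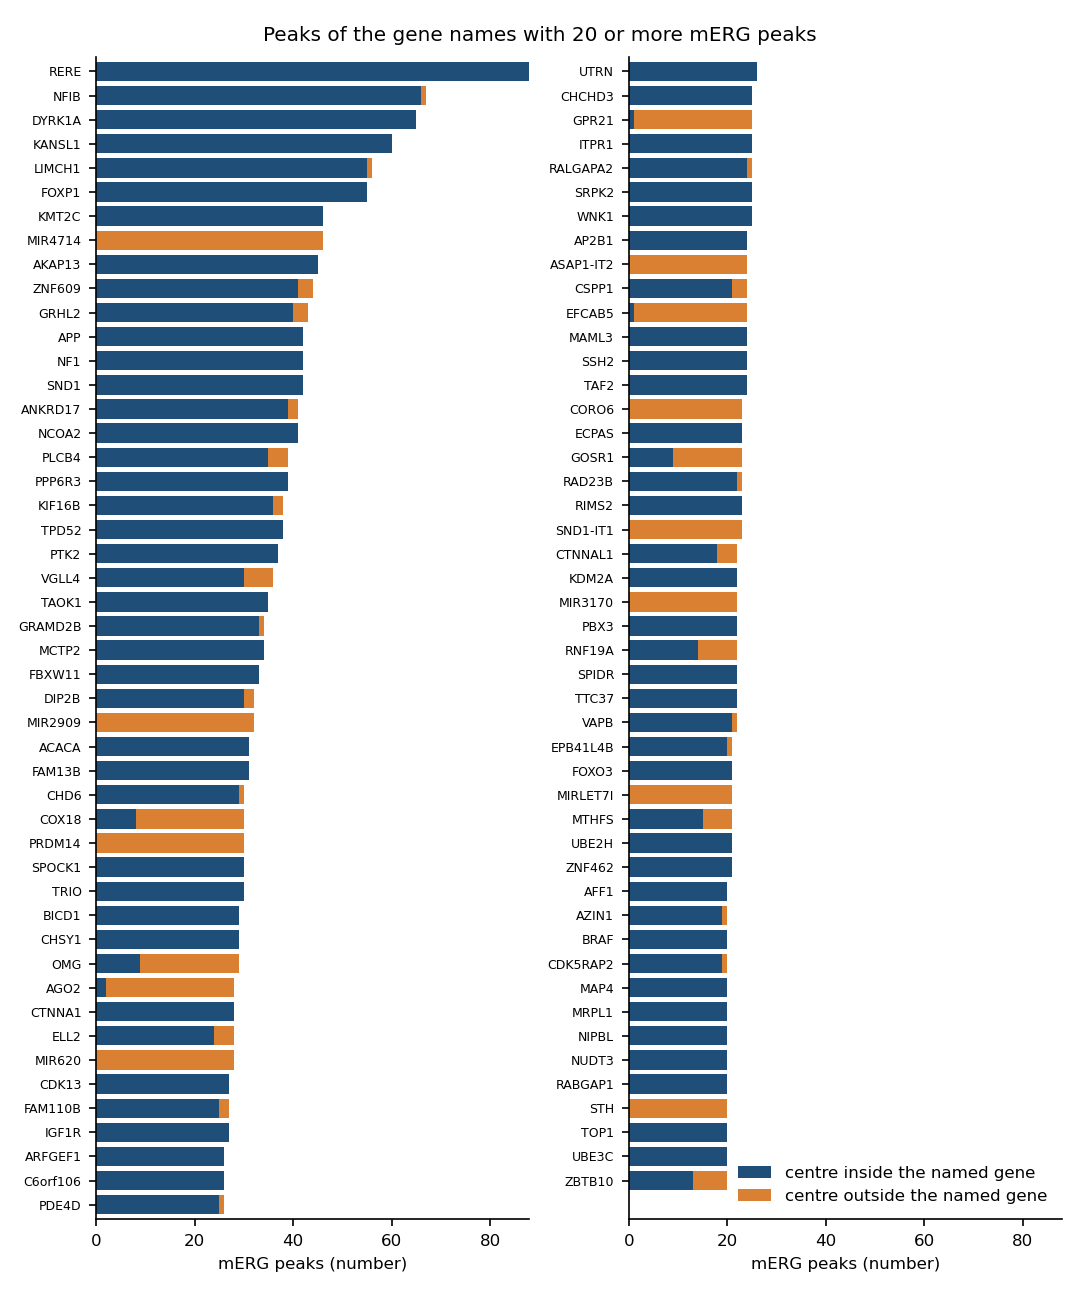
Number of mERG peaks (x axis) for 95 of the 97 gene names with 20 or more peaks (y axis), split into peaks whose centre lies inside (blue) or outside (orange) the gene of that name. RERE has the longest bar with 88 peaks, and 10 names, among them MIR4714 and PRDM14, have no peak inside their own gene.

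The names with most peaks had varied roles. RERE, a nuclear receptor corepressor of the atrophin family, had 88 peaks, followed by NFIB, a nuclear factor I transcription factor, with 67. FOXP1, a forkhead factor, had 55, ZNF609, a zinc finger protein, 44, and GRHL2, a grainyhead factor that maintains epithelial identity, 43. DYRK1A, a dual-specificity protein kinase, had 65 peaks, and LIMCH1, which activates non-muscle myosin on actin stress fibres, 56. AKAP13, an anchor of protein kinase A, had 45. The amyloid precursor protein gene APP, the Ras-inhibiting GTPase activator NF1 and SND1, a nuclease-domain protein of RNA silencing complexes, had 42 each. All peaks of RERE, DYRK1A, FOXP1, AKAP13, APP, NF1 and SND1 lay inside the gene, as did 66 of 67 at NFIB and 40 of 43 at GRHL2. Of the 97 names, 90 were annotated as protein-coding and 7 as non-coding RNA.

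Chromatin regulators gave 6 of the 97 names, out of 54 listed regulators with any peak (11.1%, beside 1.94% of all names). KANSL1, a scaffold of the NSL histone acetyltransferase complex, had 60 peaks, KMT2C, a histone methyltransferase, 46, and NCOA2, a coactivator of steroid receptors, 41. CHD6, a chromatin remodeller, had 30 and KDM2A, a histone demethylase, 22. Within this group KANSL1 and KDM2A stood apart by score, with highest scores of 468.6 and 464.8, while that of KMT2C was 96.0. The median score of KDM2A peaks was 104.4, the highest of the 97 names, against 72.2 at KANSL1, 45.4 at KMT2C, 44.9 at CHD6 and 44.0 at NCOA2.

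The list of protein kinases gave 7 of its 69 names with a peak (10.1%, beside 1.94% of all names). Not every listed name is itself a kinase, as RPTOR and PIK3R1 among the 69 and CDK5RAP2, a centrosomal protein, among the 7. Besides DYRK1A, the 7 were PTK2, the focal adhesion kinase, with 37 peaks, TAOK1 with 35, the cyclin-dependent kinase CDK13 with 27, the growth factor receptor IGF1R with 27, WNK1, a regulator of ion transport, with 25, and CDK5RAP2 with 20. TAOK1 and IGF1R had highest scores of 216.4 and 234.5, and WNK1 reached only 64.7 in as many as 25 peaks. The androgen-driven prostate genes gave 5 names out of 23 with a peak (21.7%). After GRHL2, these were TPD52, a gene often overexpressed in prostate cancer, with 38 peaks, the proteoglycan gene SPOCK1 with 30, the transcription elongation factor gene ELL2 with 28 and the zinc finger gene ZBTB10 with 20. ELL2 had the highest median score of these, 63.2, against 44.8 at GRHL2, 44.4 at ZBTB10, 41.7 at TPD52 and 41.1 at SPOCK1. The lists were drawn up by hand with earlier results of this peak list known and are not complete, so their counts are a description of the lists. The kinase genes SRPK2 with 25 peaks and BRAF with 20, for example, were among the 97 names but not listed. None of these lists was split by gene length. Of all named genes, 7.49% of those of 200 to 500 kb had many peaks, and 0.315% of those of 10 to 50 kb. Whether gene length accounts for the shares of the lists was not tested.

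Beside the 1.94% of all names, the list for the ubiquitin system gave 4 of its 67 names with a peak (5.97%), among them the substrate receptor FBXW11 with 33 peaks, the conjugating enzyme UBE2H with 21 and the ligase UBE3C with 20. Listed adhesion and junction genes gave 2 of 32 (6.25%), PTK2 and the alpha-catenin gene CTNNA1 with 28. Listed genes of DNA repair and genome maintenance gave 2 of 38 (5.26%), the nucleotide excision repair gene RAD23B with 23 and the cohesin loader NIPBL with 20. Those of vesicle traffic gave 2 of 59 (3.39%), the ARF exchange factor ARFGEF1 with 26 and the clathrin adaptor subunit AP2B1 with 24. The ubiquitin ligase RNF19A and the DNA repair scaffold SPIDR, with 22 peaks each, were not listed. Of the ETS factors, 7 had a peak and 0 had 20 or more. In all, 31 of the 97 names were on at least 1 of the 9 lists drawn up, and 66 were on none.

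Of the 97 names, 24 (24.7%, 17.2 to 34.2%) were on a list from the study of ERG and EZH2 target genes, against 7.78% of all names and 6.33% of single-peak names (5.39 to 7.42%). That list holds only targets whose expression differed between castration-resistant and primary tumors, so it does not cover every gene that both proteins bind. This comparison was chosen after the data were seen. The list was not made from this peak list, but the study drew its targets from public ERG and EZH2 ChIP data of VCaP cells. The 2 thus share a cell line. The 24 include RERE, NFIB, AKAP13, APP, SND1, IGF1R, CHD6, ELL2 and TPD52. Long genes were more often on that list: among genes of 200 to 500 kb it held 16 of 34 genes with many peaks (47.1%, 31.5 to 63.3%) and 99 of 420 others (23.6%, 19.8 to 27.9%). Among genes of 100 to 200 kb it held 3 of 31 (9.68%, 3.35 to 24.9%) and 114 of 825 (13.8%, 11.6 to 16.3%). The shares were 2 of 12 (16.7%) and 6.28% from 50 to 100 kb, 3 of 5 (60%) and 41.8% above 500 kb, and 0 of 15 and 1.89% under 50 kb.

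The names with many peaks were mostly those of long genes. Gene length had a median of 161.5 kb (95% interval 138.8 to 205.6 kb), against 63.9 kb for names with 2 to 19 peaks and 41.1 kb for names with 1 peak (37.7 to 44.6 kb). Of the 97 genes, 70 were at least 100 kb long. Among 454 genes of 200 to 500 kb in the list, 34 (7.49%) had many peaks and 166 had 1 peak. Among 103 genes over 500 kb, 5 (4.85%) had many peaks and 55 had 1. These 5 were RIMS2, a synaptic scaffold gene, the phosphodiesterase gene PDE4D, FOXP1, SPOCK1 and the utrophin gene UTRN. PDE4D was the longest at 1553 kb and held 25 of its 26 peaks, while RAD23B fitted 22 of 23 peaks into 49.1 kb.

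**Figure D2:**
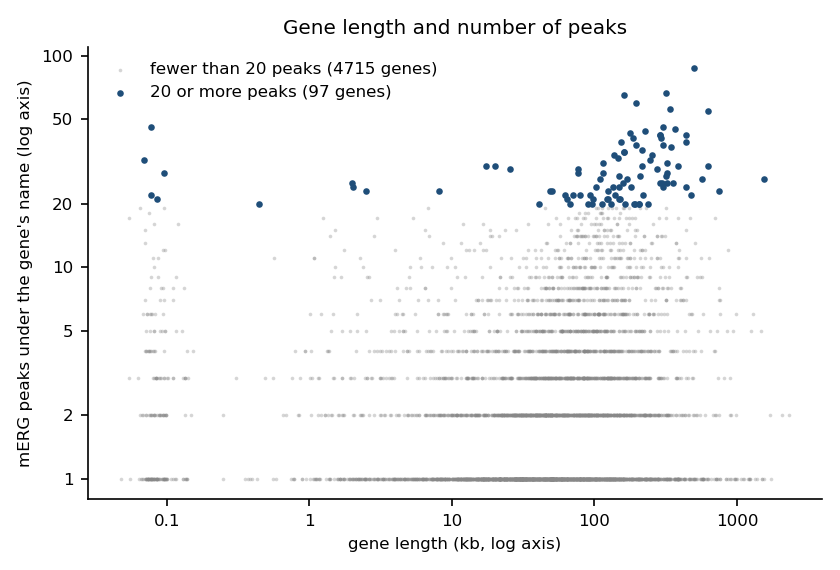
Gene length in kb (x axis, log scale) against the number of mERG peaks under the gene's name (y axis, log scale), with names of 20 or more peaks in blue and all others in grey. Most blue points lie above 100 kb (70 of 97), and the 10 blue points under 10 kb are names with 0 or 1 peak inside their own gene.

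Several names in this set were those of short genes that held few or none of their peaks. A peak is named for the nearest transcription start site (TSS), and in a long gene that can be the start of a microRNA, an antisense RNA or a neighbour. Of the 2920 peaks, 2454 (84.0%, 82.7 to 85.3%) had their centre inside the gene they name, against 54.1% of single peaks (52.0 to 56.2%), and 2876 (98.5%) lay inside some protein-coding gene, against 80.5%. All peaks were inside the named gene for 55 names, under 50% were for 16 names, and none were for 10 names. For 16 names the gene that held most of the peaks, called the host here, was another gene. The 46 peaks named for the microRNA gene MIR4714 all lay in IGF1R, the 30 named for PRDM14 in NCOA2, the 20 named for saitohin (STH) in KANSL1, and the 23 named for SND1-IT1 in SND1. For the remaining names most peaks, though not always all, lay in the host: MIR2909 in ACACA, the acetyl-CoA carboxylase gene, MIR3170 in FARP1, MIR620 in MED13L, MIRLET7I in PPM1H, ASAP1-IT2 in ASAP1, OMG in NF1, AGO2 in PTK2, COX18 in ANKRD17, GPR21 in RABGAP1, GOSR1 in CPD, and both CORO6 and EFCAB5 in SSH2, a cofilin phosphatase gene. The 97 names had 86 different hosts.

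Counted by gene body, several hosts rose in rank. NF1 held 100 peaks, of which 42 were named NF1, 29 OMG, 17 EVI2A, 7 RAB11FIP4 and 5 EVI2B, the genes OMG, EVI2A and EVI2B lying within an NF1 intron. KANSL1 held 87 peaks, 60 of them under its own name, and IGF1R held 75, 27 of them under its own name. SND1 held 72, NCOA2 71, SSH2 70, PTK2 63 and ANKRD17 58. In SSH2 the names SSH2, CORO6 and EFCAB5 shared the 70 peaks as 24, 23 and 23. FARP1 held 36 peaks and none under its own name. Of the 97 names, 75 had at least 20 peaks inside their own gene, and in the whole list 154 protein-coding genes held at least 20 peaks of any name.

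**Figure D3:**
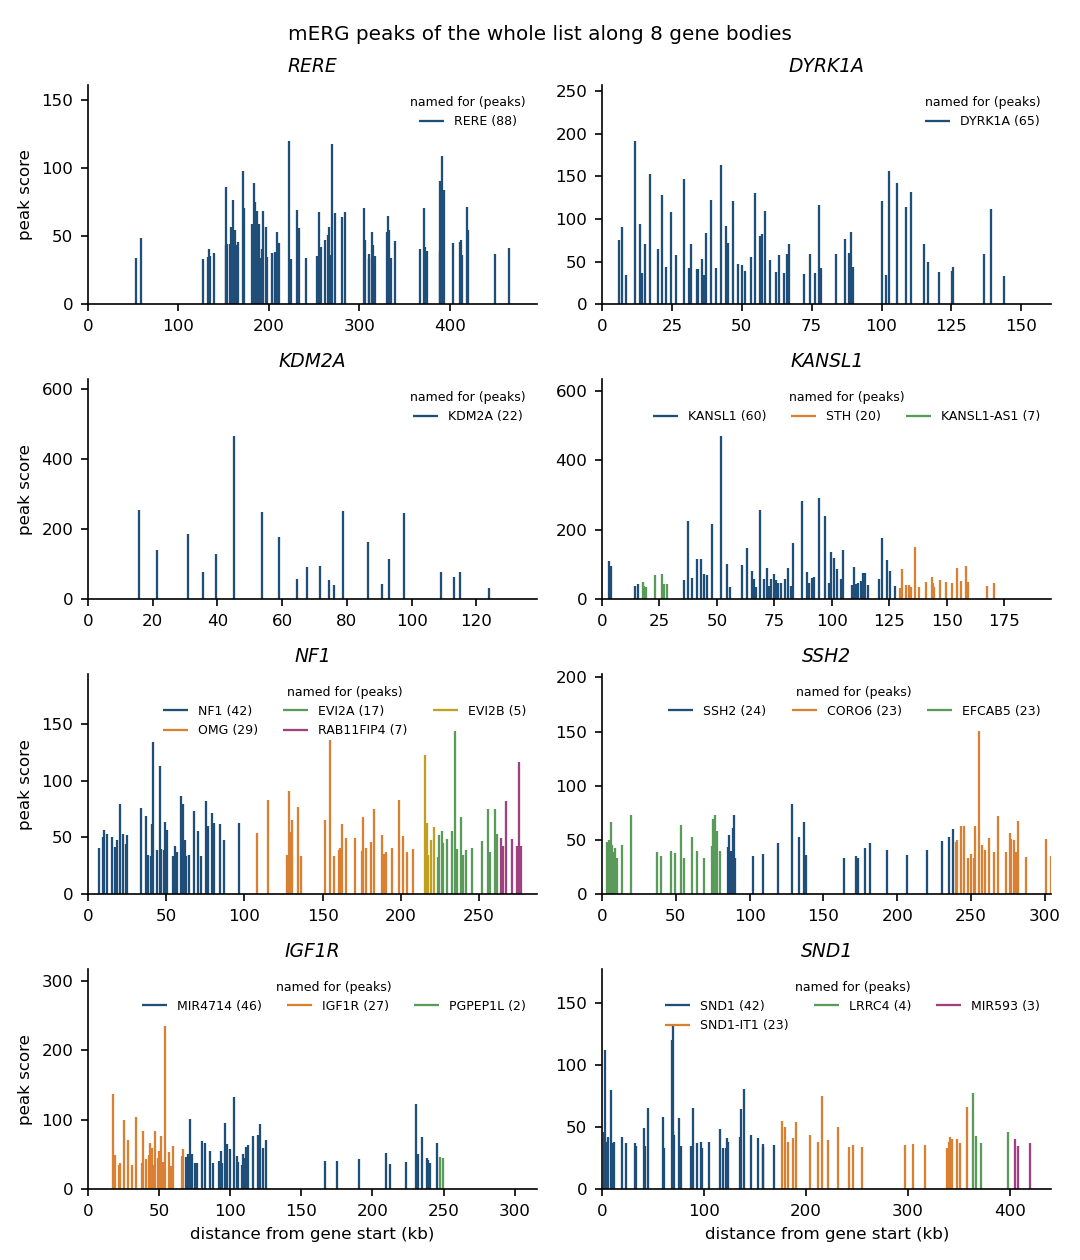
Every peak of the list inside 8 genes, at its distance from the start of the gene in kb (x axis) and with its score as height (y axis, a different range in each panel), coloured by the gene it is named for with the number of peaks. RERE, DYRK1A and KDM2A carry 1 name, while the 100 peaks in NF1 carry 5 names and the 70 in SSH2 carry 3, each in its own stretch.

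Peaks of genes with many peaks scored higher than single peaks, though most were modest. Their median score was 44.7 (95% interval 44.0 to 45.6), against 37.4 for single peaks (37.1 to 37.7), 40.9 for peaks of names with 2 to 19 peaks, and 40.9 for all peaks. The lowest score of any peak in the list was 33.01, so these medians lie not far above the floor, that of single peaks closest to it. A score of at least 50 was reached by 1107 of the 2920 peaks (37.9%), beside 25.0% of all peaks and 10.8% of single peaks. A width of at least 1 kb was reached by 390 (13.4%), beside 5.77% of all peaks and 0.95% of single peaks, and the median widths were 539 bp and 304 bp for the many and the single. Since score, width and number come from the same contrast, nothing was read from these differences. The highest score in the list, 592.2, belonged to a name with 2 to 19 peaks.

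**Figure D4:**
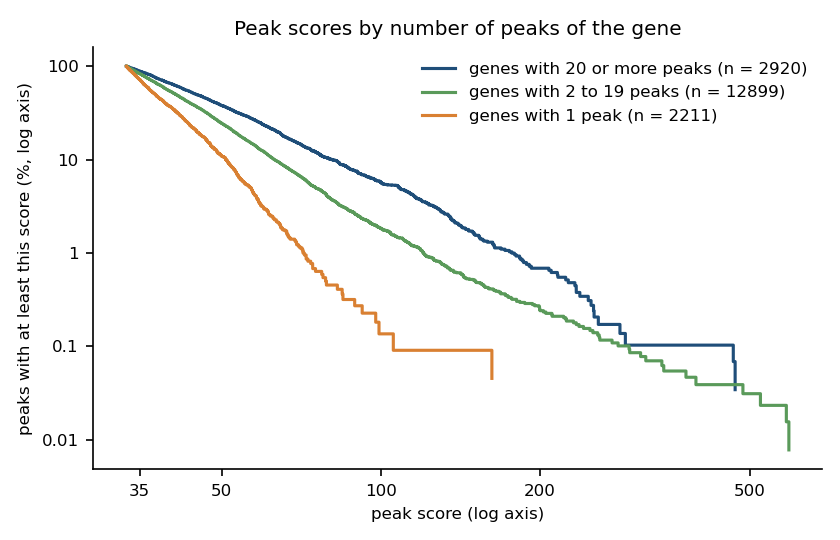
Share of peaks in percent (y axis, log scale) that reach at least a given score (x axis, log scale), for 2920 peaks of names with 20 or more peaks (blue), 12899 of names with 2 to 19 (green) and 2211 of names with 1 (orange). The blue line lies above the orange from the lowest scores on, with 37.9% against 10.8% at a score of 50.

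Scores varied widely among the genes. The median score of a gene ran from 37.7 at AFF1, a subunit of elongation complexes, to 104.4 at KDM2A, and 79 of the 97 medians were above that of all peaks. The highest score of a gene ran from 47.6 at RIMS2 to 468.6 at KANSL1, with a median of 111.0, and was at least 100 in 56 genes. After KANSL1 and KDM2A came IGF1R with 234.5, the ankyrin repeat gene ANKRD17 with 234.4 and ELL2 with 226.5. KANSL1 had 44 peaks with a score of at least 50, DYRK1A 42 and RERE 36, while RIMS2 had 0. The strongest peak of a gene lay in an intron in 96 of 97 cases, beside 94.3% of all 2920 peaks.

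For some names peaks covered much of the DNA between the first and the last peak of that name. For 9 names, at least 40% of that stretch was inside peaks: KDM2A (63.3%), KANSL1 (58.5%), ANKRD17 (52.8%), CTNNAL1 (50.9%), C6orf106 (48.7%), TAOK1 (45.8%), IGF1R (44.5%), DYRK1A (42.4%) and ELL2 (40.2%). KDM2A did so with 22 peaks, and KANSL1 with 60. With peaks of any name inside the hosts, a count chosen after the data were seen, 6 of the 86 hosts reached 40%. These were ELL2 (66.2%), KDM2A (63.3%), KANSL1 (54.6%), CTNNAL1 (49.1%), DYRK1A (42.4%) and ANKRD17 (41.7%), while TAOK1 had 26.7% and IGF1R 24.6%. At the other end, 36 names had under 10% of the stretch in peaks, among them PDE4D (1.38%), UTRN (1.52%) and RIMS2 (1.66%). The 9 genes with most of their stretch in peaks had median scores from 53.0 at IGF1R to 104.4 at KDM2A, all above the median of 44.7 over the 2920 peaks, and the low-coverage genes PDE4D, UTRN and RIMS2 had medians of 38.8, 37.9 and 38.4. Of the 36 genes with under 10%, 4 had a median above it, among them LIMCH1 (7.29% of the stretch, median score 46.5) and UBE3C (9.25%, 45.6).

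Neighbouring peaks were close together. The distance between the centres of neighbouring peaks of a gene had a median of 2452 bp (95% interval 2331 to 2594 bp) over 2823 distances, with quartiles of 1296 and 5917 bp, against 5080 bp for names with 2 to 19 peaks. Of these distances, 70.9% were under 5 kb, and 37 were over 50 kb. Names with 1 peak have no such distance, so the nearest peak of any name was also measured. It lay 1568 bp away in the median for peaks of genes with many peaks and 102892 bp away for single peaks, and within 10 kb for 94.4% and 3.71%. Both values follow in large part from the choice of genes by their number of peaks. Gene by gene, the median distance ran from 1251 bp at TOP1, the DNA topoisomerase gene, through 1295 bp at KANSL1 and 1829 bp at RERE, to 20950 bp at RIMS2 and 27775 bp at PDE4D. By peaks of the gene's own name inside it per 100 kb of gene, the densest were GPR21 and COX18, short genes with 1 and 8 peaks inside, at 50.0 and 46.0, followed by RAD23B at 44.8, DYRK1A at 40.4 and CHSY1, a chondroitin synthase gene, at 38.0. With peaks of any name, KANSL1 held 44.5 per 100 kb and ELL2 41.7. Over the 75 genes with at least 20 such peaks inside, the median was 14.6 per 100 kb and the lowest 1.61 at PDE4D.

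The peaks lay mostly inside introns and away from the nearest TSS. Introns held 2754 of the 2920 peaks (94.3%, 93.4 to 95.1%), against 74.6% of single peaks (72.8 to 76.4%) and 87.6% of all peaks. Intergenic peaks were 3.15% and 18.3% for the many and the single, and 7.53% of all peaks. Promoters held 6 of the 2920 peaks (0.205%), against 0.317% of single peaks and 0.277% of all peaks. Of the 2920, 318 (10.9%) lay within 10 kb of the nearest TSS, against 29.6% of single peaks and 20.1% of all peaks. The distance to the TSS had a median of 43718 bp for peaks of genes with many peaks, 19882 bp for single peaks and 27766 bp for all peaks. For 4 of the 97 names a peak came within 1 kb of an annotated TSS of the gene, DYRK1A (0.005 kb), RNF19A (0.078 kb), APP (0.352 kb) and GPR21 (0.716 kb). The outermost start of the gene lay further from the closest peak centre at DYRK1A (5.96 kb), APP (6.07 kb) and RNF19A (31.5 kb), and within 1 kb at GPR21 alone. The closest peak of STH, by contrast, was 55.5 kb away, and that of NIPBL 23.9 kb.

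Along the gene, the peaks thinned out towards the end, more so by name than by position. For the 75 genes with at least 20 peaks inside, the gene was divided into 5′, middle and 3′ parts of equal length. These held 46.6%, 40.1% and 13.3% of the 2326 peaks, and the last 10% of the gene held 1.55%. Peaks towards the end of a gene are more often named for a neighbour, so the same was done for peaks of any name inside the 86 hosts, a comparison chosen after the data were seen. Of these 3275 peaks, 37.2% lay in the 5′ part, 35.3% in the middle and 27.5% in the 3′ part (25.9 to 29.0%), with 5.62% in the last 10%. The 3′ part held most peaks in 9 of the 86 hosts and the strongest peak in 19. Median scores in the 86 hosts were 45.7 in the 5′ part, 44.9 in the middle and 43.7 in the 3′ part, and the intervals of the 5′ and 3′ parts overlapped (44.4 to 47.0 and 42.7 to 44.9). For peaks in the named genes they were 45.9, 44.9 and 42.55. Gene by gene, the rank correlation of position with score ran from −0.594 at UBE3C to 0.430 at ELL2 and was below 0 in 45 of 75 genes. In RERE, 2 of 88 peaks lay in the first 100 kb of the gene, and in IGF1R 47 of 75 lay in the 5′ part, as the plot of peaks along 8 genes shows.

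**Figure D5:**
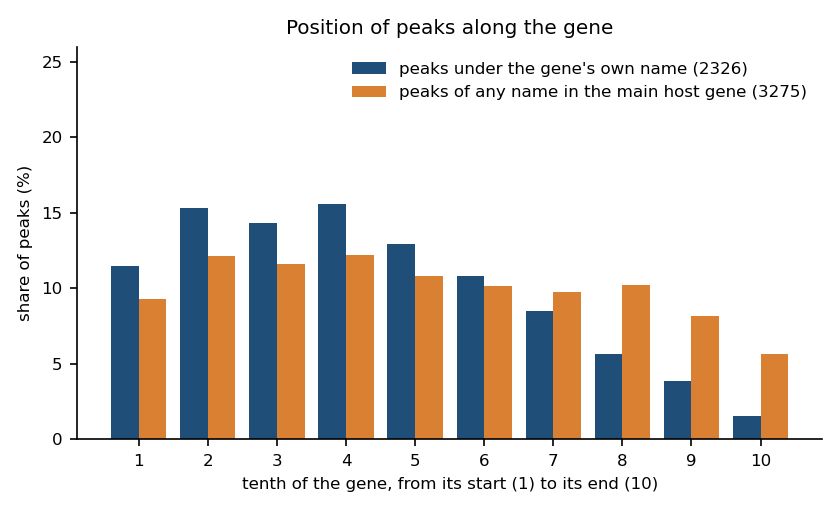
Share of peaks in percent (y axis) in each of 10 equal parts of the gene from its start to its end (x axis), for 2326 peaks inside the gene they name (blue) and for 3275 peaks of any name inside the 86 hosts (orange). The blue bars fall to 1.55% in the last part and the orange bars to 5.62%.

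The genes were spread unevenly over the chromosomes. Chromosome 8 held 17 of the 97 names (17.5%) and 484 of their peaks, against 4.79% of all names and 2.99% of names with 1 peak. Among them were GRHL2, NCOA2, TPD52 and PTK2. By name, chromosome 17 followed with 12 names and 367 peaks, among them KANSL1, NF1 and TAOK1, against 4.89% of all names. Several of these were names for peaks in 1 gene, such as CORO6, SSH2 and EFCAB5. Counted by host, after the data were seen, chromosomes 5, 7 and 9 each held more hosts than chromosome 17. Chromosomes 5 and 9 had 10 names each and chromosome 7 had 9. Chromosome 1 had RERE alone out of 463 names, and 8 chromosomes, among them chromosome 2 with 388 names and chromosome 10 with 179, had none. By name, 44 of the 97 (45.4%) fell into 18 runs in which the peaks of a name began within 1 Mb of those of the one before, but many of these runs were several names for peaks in 1 gene. By host, a count chosen after the data were seen, 25 of the 86 hosts (29.1%) fell into 10 runs, and no such count was made for all names. The longest run of names, on chromosome 17 (chr17:27721683-29630149), held TAOK1, CORO6, SSH2, EFCAB5, GOSR1, NF1 and OMG with 200 peaks in all. A run of 4 names on chromosome 8, among them GRHL2, the antizyme inhibitor gene AZIN1 and RIMS2, held 121 peaks, and a run of 3 on chromosome 5 held SPOCK1, FAM13B and CTNNA1 with 89. Leaving out the names on chromosome 8 gave a median score of 45.1 and a median distance between peaks of 2434 bp.

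At the threshold itself, 13 names had 20 peaks and 16 had 19. The first names with 20 in alphabetical order were AFF1, AZIN1, BRAF, CDK5RAP2 and MAP4, and the first with 19 were AEBP2, CBFA2T2, CUL1, DIP2A-IT1 and GOLGA4. The median score was 42.5 over the peaks of names with 20 and 43.3 over those with 19, and the median gene length was 130.4 kb and 128.2 kb. Names just inside and just outside the threshold were thus close in both respects.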

How the data were processed

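The deposited list holds the peaks of 1 mERG ChIP library against 1 control library from VCaP cells. Bowtie2, Picard, HOMER and hg19 are named in the submitters' processing notes, and MACS in the header; the MACS version and threshold are not given in the sources used here. The score of each peak is the value the authors deposited, read as 10 times the negative log10 of the MACS p-value from its lowest values, and is not normalized to depth. Per the file headers, peak starts, ends and distances to the TSS, the other units used, are in bp on hg19. Read depth is unknown from the list.

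Rows were counted per gene name as listed; 40 peaks had no name. Gene starts and ends were taken from GENCODE (release 44, GRCh37) and matched by symbol, then Ensembl identifier, for 4812 names (96.0%) and all 97 with many peaks. Hosts were protein-coding genes. The 3 ETS words were searched in GRCh37, leaving out 33 peaks off the standard chromosomes. Intervals are Wilson 95% intervals for shares and order-statistic intervals for medians; they cover counting error only. Peaks of 1 gene are not replicates. Methods were checked on simulated data. The software was pysam 0.24.0, SciPy 1.17.1, pandas 2.3.3, NumPy 2.4.6 and Matplotlib 3.10.9 under Python 3.11.15.

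The members and gene lists were chosen with earlier results of these data known. Named genes were the 12 names with most peaks (with ties), the 5 densest per 100 kb of gene, the 5 with the highest score, members of the gene lists, and names at 20 and 19 peaks; hosts and other genes were named after their values were seen. A few genes, a gene list and some sequences covered by these rules are left out. Alternatives were 15 or 30 peaks, a score of at least 50, merging within 1 kb, peaks inside the named gene, whole peaks for GGAA, and leaving out chromosome 8.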

Additional observations from a re-analysis of the deposited data

How the results depend on the processing

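The 97 names with 20 or more peaks became 9 with peaks of score at least 50, 38 with peaks within 1 kb merged, 184 at 15 peaks and 36 at 30 peaks; each of the 9 and of the 38 was among the 97. Requiring a score of at least 50 raised the median score to 69.2, by its own construction, the median distance to 2690 bp and the intron share to 98.1%. At 30 peaks the median distance was 2281 bp, the median gene length 235 kb and the intron share 95.9%, and at 15 peaks the median length was 129 kb. Merging raised the median distance to 5480 bp. Whole peaks held GGAA in 97.8% of cases, being longer than the 201 bp windows. The other 14 of 27 planned values stayed within 1.5 times the main count or within the main interval. Among alternatives chosen after seeing the data, the share of peaks in the 3′ part of the gene moved from 13.3% to 27.5% with peaks of any name in the hosts, and the ERG and EZH2 list held 30.2% of hosts (21.5 to 40.6%). The share in runs of neighbours moved from 45.4% of names to 29.1% of hosts. At least 40% of the stretch lay in peaks for 9 names and 6 hosts. No paired analysis was possible because there is 1 library of each kind. With no replicate, no depth and no signal track, neither the repeatability of a peak nor the part that the control played in its score was tested.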
